A study of Homo sapiens with 2 samples.

Results

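The proteasome subunit genes were described in TCam-2, an established cell line from a human testicular cancer, transduced so that it overexpresses the RNA helicase gene DDX53 of the DEAD-box family. Members were the protein-coding genes whose symbol is PSM followed by a letter from A to G and a number, leaving out PSMB8 and PSMB9, and 46 of the 62700 genes of the deposited gene table met this rule. By that rule the set also holds assembly chaperones, activators and an inhibitor of the proteasome beside its structural subunits.

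The proteasome is the protease that degrades ubiquitin-tagged proteins in the cytoplasm and nucleus. Its barrel-shaped core has outer rings of alpha subunits (PSMA), which gate the entrance, and inner rings of beta subunits (PSMB), some of which cut peptide bonds. The regulatory cap holds a ring of ATPases (PSMC) that unfold and feed in the substrate, and non-ATPase subunits (PSMD) that bind, position or deubiquitinate it. Other activators (PSME) can replace that cap, PSMF1 inhibits the core, and PSMG proteins and some PSMD proteins are assembly chaperones. Some subunits have tissue-specific versions: PSMA8 in meiotic male germ cells, PSMB10 in immune cells and after interferon, and PSMB11 in the thymus.

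The series held 1 group of 2 polyadenylated RNA libraries, both carrying the DDX53 construct with a FLAG tag (genotype label, DDX53 overexpression), with no treatment, time course or promoter of the construct named in the labels. Its design names wild-type TCam-2 cells and cells that received a GFP-FLAG construct as controls. Those were not analysed here, so no effect of DDX53 on a proteasome gene was computed. Nothing in the labels says that the replicates came from separate cultures, and any spread between them may be technical.

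The libraries held 24137664 reads in genes (replicate 1) and 22198929 (replicate 2), so that a gene with 0 reads could have up to 0.124 CPM (a count scaled to the library's reads in genes) in replicate 1 and 0.135 CPM in replicate 2, the level of 3 reads. DDX53 itself had 146 and 147 reads, 6.05 and 6.62 CPM, in the replicates. All 6 markers of seminoma and primordial germ cells, among them POU5F1 and SOX17, reached 1 CPM in both libraries. None of the 6 markers listed for later germ cells did, and 4 of them had 0 reads in both. Of that list DDX4 and DAZL are not limited to spermatocytes and later stages. The 3 immune markers PTPRC, CD3E and CD68 had 0 reads in both. For CD68 this count is uncertain, as 95.2% and 78.2% of its expressed exon length overlapped same-strand exons of other genes. Its level was 0.0927 and 0.218 TPM (a level corrected for transcript length and library depth). SOX2, a marker of embryonal carcinoma, was at 0.994 and 1.08 CPM. Of the 3 Sertoli and Leydig cell markers only AMH reached 1 CPM in both libraries, with 6.01 and 5.81 CPM.

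Of the 46 members, 43 passed the detection threshold of 1 CPM in each library. The share of all genes detected by that rule was 21.7%, and that of the 19831 protein-coding genes of GENCODE 29 was 61.7%. The 3 members below the threshold were PSMA8, PSMB11 and PSMA2. Together the members took 0.674% of the reads of replicate 1, with a 95% Wilson interval from 0.671% to 0.678%. In replicate 2 they took 0.668%, from 0.665% to 0.672%. These intervals cover counting error only, and the reads of 5 members fell over 4-fold short of a prediction from their transcripts, described further on. In bulk RNA, fewer cells of a type and less RNA per cell cannot be told apart.

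Levels were compared between genes per length, as TPM (a level corrected for transcript length and library depth) summed over the transcripts of each gene. The 44 members that reached 1 TPM in each library had a median level of 157 TPM, and the 12984 genes of the table that met the same rule had a median of 14.1 TPM. Together the members held 0.856% of the TPM of replicate 1 and 0.859% of that of replicate 2. In order of their median level, the classes were the alpha ring (338 TPM), the beta ring (226 TPM), the base ATPases (216 TPM) and the non-ATPase cap subunits (144 TPM). The inhibitor PSMF1 (107 TPM), the core assembly chaperones (97.4 TPM), the base assembly chaperones (65.2 TPM) and the activators (61.0 TPM) followed. This order depended on the measure: by reads per kilobase, scaled like TPM, the alpha ring median was 119, below the beta ring (265), the base ATPases (241), the non-ATPase cap (162) and the inhibitor (136). Without the members that share exons with another gene, described further on, it was 314 and again the highest of the classes, in a setting chosen after seeing the data. The medians of the beta ring and the base ATPases in the separate libraries, 223 and 229 TPM against 212 and 220 TPM, lay close together. Those of the base assembly chaperones and the activators overlapped, at 61.1 and 69.3 TPM against 63.5 and 58.4 TPM.

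**Figure D1:**
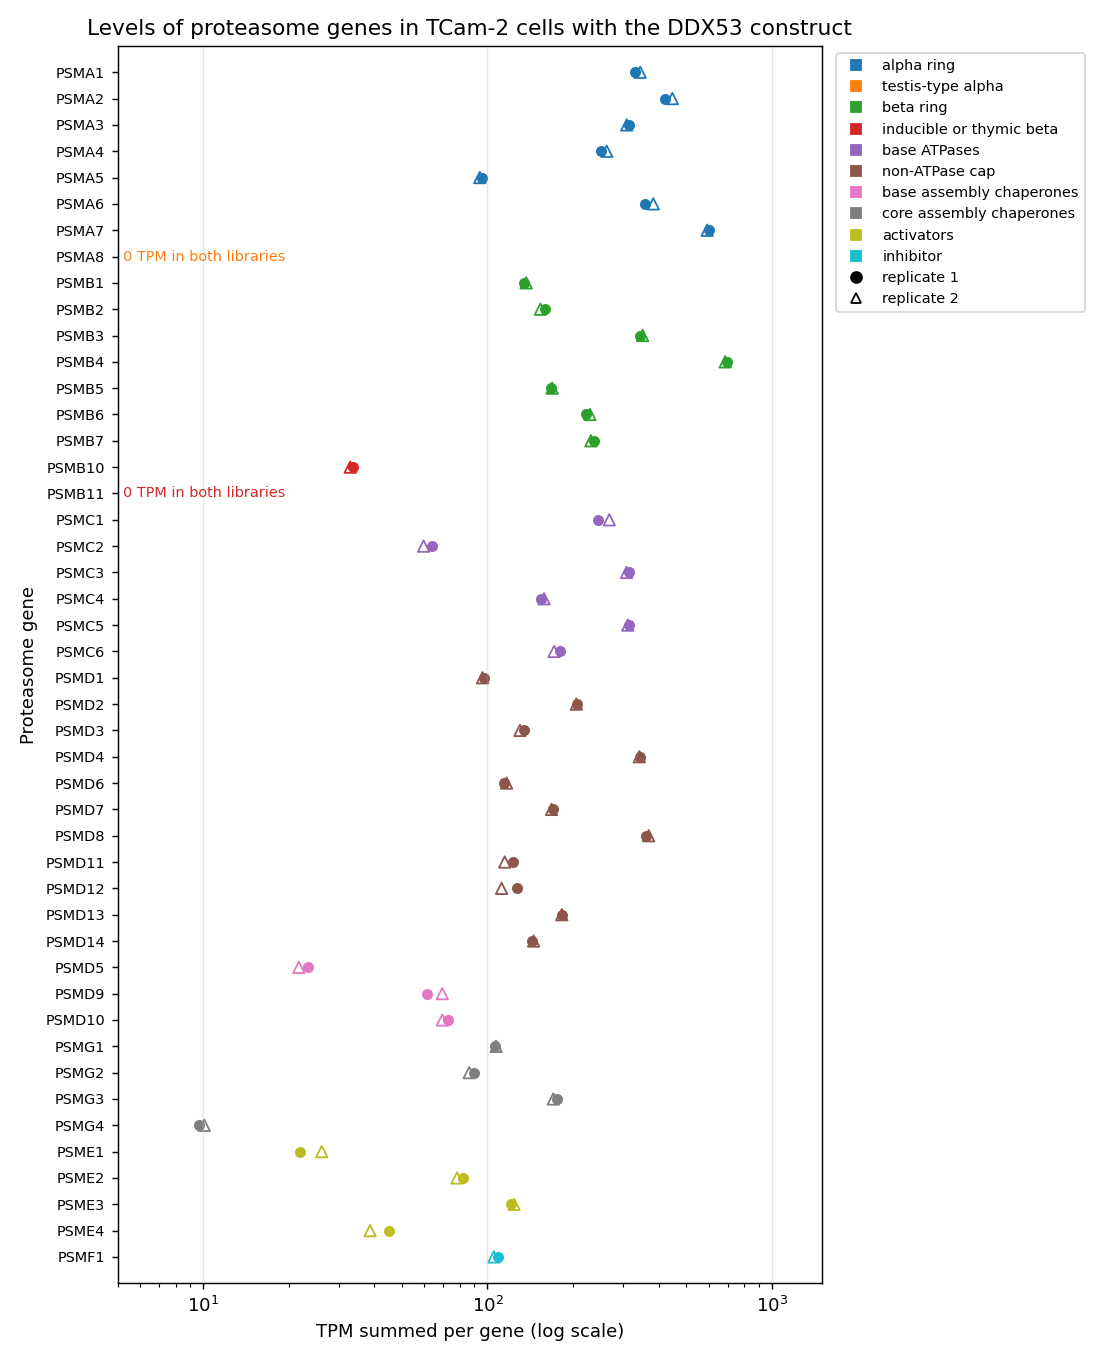
Level of each proteasome gene in replicate 1 (filled circles) and replicate 2 (open triangles), as TPM summed per gene on a log axis, coloured by subunit class. PSMB4 and PSMA7 lie at the top, PSMG4 at the bottom of the expressed genes, and PSMA8 and PSMB11 at 0 TPM in both libraries.

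Among the alpha ring genes the highest was PSMA7, with 601 TPM in replicate 1 and 593 TPM in replicate 2. PSMA5 was the lowest, with 95.9 and 93.9 TPM, so that the levels spanned 6.28-fold across a ring that holds equal numbers of each subunit. PSMA3, whose product helps to form the gate of the core, had 316 and 309 TPM. The other alpha genes lay between these extremes: PSMA1 had 331 and 345 TPM, PSMA2 had 422 and 447 TPM, PSMA4 had 250.5 and 263 TPM, and PSMA6 had 358 and 383 TPM. The coefficient of variation over the 7 genes was 0.45.

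PSMA8, the alternative of PSMA7 in meiotic germ cells (ENSG00000154611.15, chr18:26133852-26193355, plus strand, GRCh38), had 0 reads and 0 TPM in both libraries. PSMA7 (ENSG00000101182.15, chr20:62136735-62143440, minus strand) had 8684 and 7864 reads. A count of 0 allows PSMA8 up to 0.0345% of the summed reads of the pair in replicate 1 and 0.0381% in replicate 2. Over an alignment of their coding sequences of 771 columns 70.9% of bases were identical, and the longest identical run was 18 bases. A block of 90 coding bases near the start codon shows how they differ, with the 22 differing bases in capitals (GENCODE 29; coding bases 4 to 93 of PSMA7 and 10 to 99 of PSMA8).
PSMA7: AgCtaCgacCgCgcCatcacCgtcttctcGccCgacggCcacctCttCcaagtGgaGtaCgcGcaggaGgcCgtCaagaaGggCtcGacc
PSMA8: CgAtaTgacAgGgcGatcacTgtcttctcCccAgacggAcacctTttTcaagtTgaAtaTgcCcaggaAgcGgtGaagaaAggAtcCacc
Of the 6 markers listed for later germ cells, SYCP1, DAZL, TEX101 and PRM1 also had 0 reads in both libraries, SYCP3 had 1 and 2 reads, and DDX4 had 7 and 4.

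In the beta ring PSMB4, a structural subunit, was the highest of all members with 695 and 686 TPM. PSMB1 was the lowest of the ring with 134 and 137 TPM, and the class had a coefficient of variation of 0.70. The genes of the 3 catalytic subunits were closer to each other: PSMB5 (chymotrypsin-like site) had 167 and 169 TPM, PSMB6 (caspase-like site) 223 and 229 TPM, and PSMB7 (trypsin-like site) 236 and 231 TPM. PSMB6 and PSMB7 lay above PSMB5 in both libraries and were near each other, at 226 ± 4.68 and 234 ± 3.71 TPM (SD, n = 2). The structural genes PSMB2 and PSMB3 had 160 and 154 TPM, and 344 and 351 TPM.

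PSMB10, which replaces PSMB7 in the immunoproteasome (ENSG00000205220.12, chr16:67934502-67937087, minus strand), had 33 and 26 reads. Of the summed reads of PSMB7 and PSMB10 it held 0.903% in replicate 1, with a 95% Wilson interval from 0.644% to 1.27%. In replicate 2 it held 0.799%, from 0.546% to 1.17%. By TPM the share was 12.4% and 12.5%, from levels of 33.6 and 32.9 TPM. The share therefore depended on the table, and PSMB10 is among the genes whose reads fell short of their TPM, described further on. The 2 coding sequences were 61.1% identical, with no identical run longer than 14 bases.

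PSMB11, the thymic counterpart of PSMB5 (ENSG00000222028.5, chr14:23042167-23044276, plus strand), had 0 reads and 0 TPM in both libraries. This allows it up to 0.108% and 0.118% of the summed reads of PSMB5 and PSMB11. The gene lies 6936 bases from PSMB5, whose 2773 and 2537 reads place it among the well expressed members.

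The sequences just upstream of PSMA8 and PSMB11 are shown because these members had no read, and they differ in CpG content (RefSeq promoter window on GRCh38.p14, ended before the first base of the GENCODE 29 gene, CpG in capitals). For PSMA8 the stretch is chr18:26133619-26133851 and for PSMB11 chr14:23041962-23042166, both on the plus strand.
PSMA8: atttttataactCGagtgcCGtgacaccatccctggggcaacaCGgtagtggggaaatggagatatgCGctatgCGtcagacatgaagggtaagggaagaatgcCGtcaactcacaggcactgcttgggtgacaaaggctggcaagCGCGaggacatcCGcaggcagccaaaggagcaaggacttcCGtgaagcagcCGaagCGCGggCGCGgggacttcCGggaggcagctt
PSMB11: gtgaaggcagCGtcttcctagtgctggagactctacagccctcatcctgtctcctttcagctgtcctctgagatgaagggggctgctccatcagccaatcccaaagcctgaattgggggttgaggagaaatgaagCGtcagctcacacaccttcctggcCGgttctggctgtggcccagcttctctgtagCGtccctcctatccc
The PSMA8 stretch holds 16 CpG in 233 bases and that of PSMB11 holds 4 in 205 bases. Over the full 250 upstream bases PSMA8 had 18 CpG and PSMB11 had 4, beside a median of 19 over the windows of members and 11 over all windows. By its count PSMA8 was thus close to the expressed members, and windows with no more CpG than that of PSMB11 also belonged to expressed members, namely 1 of the windows of PSMF1 with 4 and 1 of those of PSMD2 with 3. The other window of PSMF1 held 22 CpG and that of PSMD2 held 33, and which start site was used was not measured.

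The 6 base ATPases ranged from PSMC2, with 63.9 and 59.6 TPM, to PSMC5, with 315 and 312 TPM. PSMC3 was level with PSMC5 at 314 and 308 TPM. PSMC1 had 245 and 268 TPM, PSMC6 179 and 172 TPM, and PSMC4 155 and 158 TPM. These genes descend from a common ancestor, and their coding sequences were 50.3% to 56.9% identical over the 15 pairs, with no identical run longer than 18 bases.

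The 11 non-ATPase cap genes were all detected and spanned 3.78-fold in level. PSMD8, a lid subunit, was the highest with 361 and 369 TPM, and PSMD4, a ubiquitin receptor, followed with 344 and 342 TPM. PSMD1, a large scaffold of the base, was the lowest with 97.2 and 96.1 TPM. PSMD2, the other large scaffold of the base, had 207 and 206 TPM. PSMD14, which removes ubiquitin chains from substrates, had 143 and 145 TPM. The lid genes PSMD3, PSMD6, PSMD7, PSMD11, PSMD12 and PSMD13 lay between 112 TPM (PSMD12, replicate 2) and 184 TPM (PSMD13, replicate 1).

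Both classes of assembly chaperone had lower medians than the 4 classes of constitutive subunits above. Among the chaperones of the core, PSMG3 had 176 and 170.5 TPM, and its heterodimer partner PSMG4 had 9.66 and 10.1 TPM, a 17.6-fold span. PSMG1 and PSMG2, which also form a heterodimer, were close by summed TPM, with 107 and 107 TPM, and 89.4 and 86.3 TPM. Transcripts typed as protein-coding held 20.3% and 20.6% of the TPM of PSMG1, and 96.3% and 92.1% of that of PSMG2. The highest protein-coding transcript had 14.5 and 16.5 TPM in PSMG1, and 83.6 and 79.4 TPM in PSMG2. Their levels in protein-coding transcripts were thus not close. Among the chaperones of the ATPase base, PSMD10 had 72.6 and 69.4 TPM, PSMD9 61.1 and 69.3 TPM, and PSMD5 23.4 and 21.7 TPM.

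Of the activators, PSME3, the nuclear activator, was the highest with 121 and 124 TPM. PSME1 and PSME2, the interferon-inducible subunits that assemble into 1 ring, differed, with 21.8 and 26.1 TPM for PSME1 and 82.0 and 78.2 TPM for PSME2. The gap was narrower by reads per kilobase, scaled like TPM, with means of 26.2 for PSME1 and 43.3 for PSME2. These neighbours lie 4394 bases apart on chromosome 14. PSME4, which has roles in sperm development and in DNA repair, had 45.0 and 38.6 TPM. The inhibitor PSMF1 had 109 and 105 TPM, above 3 of the 4 activators in both libraries by summed TPM. Its place above PSME2 depended on the measure. By the highest transcript alone PSMF1 had a mean of 41.0 TPM and PSME2 66.8 TPM. Transcripts typed as protein-coding held 38.6% and 40.7% of the TPM of PSMF1, and 93.2% and 90.3% of that of PSME2.

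The gene table and the transcript table did not give the same picture of every member. Each gene's CPM was set against the CPM predicted from its transcripts' TPM and lengths. Among the 43 members that reached 10 TPM in each library, 5 had reads over 4-fold below the prediction in both libraries, where 4.92% of the 7255 protein-coding genes of that level did. None was over 4-fold above, where 0.524% of those genes were. The 5 were PSMA1, PSMA2, PSMA6, PSMB10 and PSMD9.

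PSMA2 (ENSG00000106588.12, chr7:42916857-42932223, minus strand) had the widest gap, with 15 and 23 reads, 0.621 and 1.04 CPM, where its TPM predicted 319 and 333 CPM. PSMA6 had 67 and 62 reads, 2.78 and 2.79 CPM, where 243 and 261 CPM were predicted. PSMA1 had 358 and 373 reads, 14.8 and 16.8 CPM, where 322 and 329 CPM were predicted. These are alpha ring subunits, and their TPM were among the higher values of the set. For PSMB10 the observed reads were 0.0859 and 0.0783 of the predicted ones, and for PSMD9 0.0461 and 0.0433.

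The same 5 members, and no other of the 43, had at least 50% of their expressed exon length inside exons that GENCODE 29 gives to a different gene of the same strand. Such sharing was found in 3.50% of the 7255 protein-coding genes. The other gene was annotated as protein-coding in each case, namely ENSG00000256206.2 for PSMA1, ENSG00000256646.8 for PSMA2, ENSG00000258790.1 for PSMA6, ENSG00000261884.2 for PSMB10 and ENSG00000256950.2 for PSMD9, of which the transcript PSMD9-207 also overlaps ENSG00000158023.10. These other genes held few reads themselves, but they share the same exons. ENSG00000158023.10 had 19 and 10 reads, ENSG00000261884.2 had 5 and 4, and the others had 0 or 1 in each library. By TPM, ENSG00000256646.8 had 17.1 and 18.5, ENSG00000258790.1 had 9.98 and 9.43, and each of the others had at most 2.67. Across the table, 86.2% of the 254 genes with such sharing had reads over 4-fold below the prediction, and 1.97% of the 7001 other genes did. How the counting treated a read inside exons of more than 1 gene is not given in the sources used here, and its part in the result was not tested.

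For the other 38 members the tables lay close, and 36 of them were within 1.5-fold of the prediction in both libraries. The exceptions were both activators. PSME3 had 3.28 and 3.22 times the predicted reads, and PSME2 had 0.471 and 0.455 of them. Where a level of the 5 sharing genes is needed, the CPM is uncertain and the TPM is the value described here. Which of these measures lies nearer the true level was not tested.

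**Figure D2:**
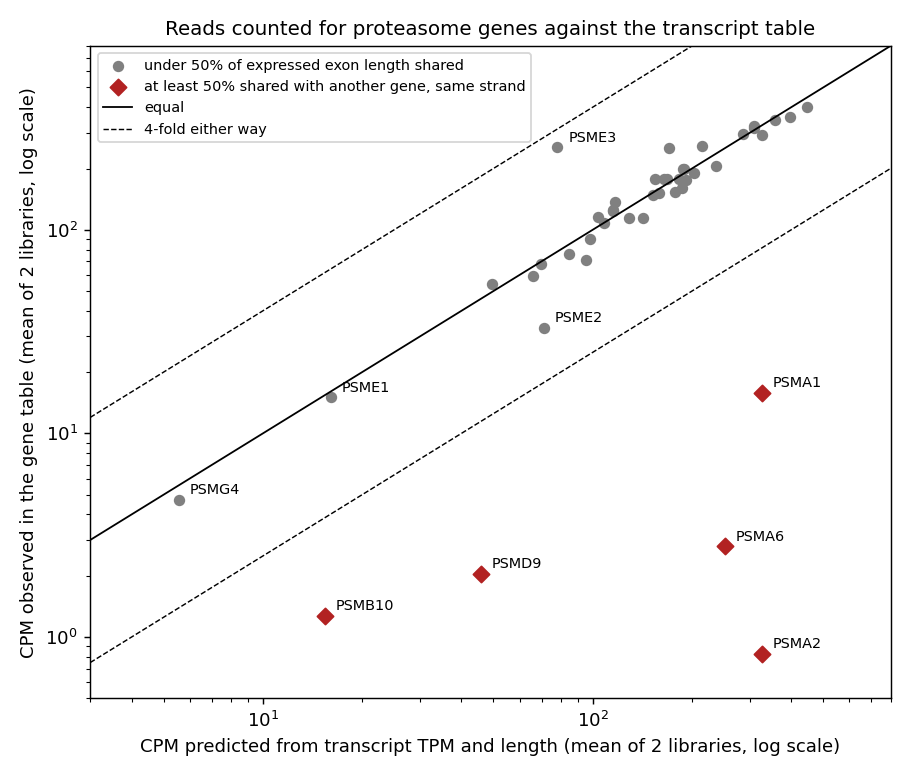
CPM observed in the gene table against CPM predicted from transcript TPM and length, as means of both libraries on log axes, for the 44 members with a TPM above 0. The 5 members with at least 50% of expressed exon length shared with another gene (diamonds) lie below the lower 4-fold line, and all other members (circles) lie between the dashed lines.

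The named pseudogenes of the members took few reads. Of 44 such pseudogenes of 17 members, 8 had a read in either library, and together they held 37 and 43 reads. This was 0.0227% (95% Wilson interval, 0.0165% to 0.0313%) and 0.0290% (0.0215% to 0.0390%) of the reads of pseudogenes and members together. PSMC1P1 held 24 and 26 of these reads and had 9.93 and 8.22 TPM, beside 245 and 268 TPM for PSMC1. In 6 members (PSMC1, PSMC5, PSMD7, PSMD13, PSME2 and PSMG2) at least 10% of the expressed exon length faced exons of a gene on the opposite strand. The library kit keeps strand, but whether the counting used it is not given in the sources used here, so these counts are uncertain.

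Most members were made up mainly of 1 transcript. In the 43 members with at least 10 TPM and more than 1 transcript, the top transcript held a median of 89.1% of the gene's TPM in each library. Over the 7037 genes of the table meeting that rule the median was 72.3% and 72.5%. The top transcript held at least 80% in both libraries in 28 members, among them PSMA3-201 with 97.4% and 96.8%, PSMD13-212 with 92.0% and 91.0%, and PSMD4-202 with 90.6% and 88.3%. The top transcript differed between the libraries in 1 of the 43 members, where it did in 6.91% of the 7037 genes. That member was PSMD9, a chaperone of the ATPase base: PSMD9-204, annotated as a target of nonsense-mediated decay, held 52.5% in replicate 1 and 33.7% in replicate 2, and PSMD9-205, annotated as protein-coding, held 16.7% and 35.2%.

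Members with a second transcript above 10% included PSME3, in which PSME3-210 held 80.4% and 78.5% and PSME3-207 held 10.9% and 13.8%. In PSMG4 the top transcript was PSMG4-206 with 65.5% in each library, followed by PSMG4-205 with 23.2% and 30.6%. PSMA2 was divided between PSMA2-201 (55.3% and 52.4%) and PSMA2-204 (44.5% and 47.2%), both protein-coding.

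In 7 of the 43 members less than 50% of the TPM lay in transcripts that GENCODE 29 types as protein-coding in both libraries, where 6.37% of the 7255 protein-coding genes of at least 10 TPM met that rule. This comparison was chosen after the values were seen. The 7 were PSMA5, PSMB2, PSMB10, PSMD12, PSME4, PSMF1 and PSMG1. In PSMA5, an alpha ring gene, the processed transcript PSMA5-204 held 80.8% and 81.4%, and the protein-coding PSMA5-201 held 7.86% and 7.01%. PSMB2, of the beta ring, had 68.9% and 69.3% in the processed transcript PSMB2-203 and the rest in the protein-coding PSMB2-201. Both genes thus had a level by summed TPM that was largely not that of their protein-coding transcripts.

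In PSMB10 the retained-intron transcript PSMB10-203 held 77.2% and 80.2%, and the protein-coding PSMB10-201 held 15.2% and 9.0%. For PSMF1, the inhibitor, PSMF1-209 (processed transcript) held 38.4% and 38.0%, and the protein-coding PSMF1-202 held 21.1% and 21.3%. The lid gene PSMD12 had its largest share, 37.0% and 44.0%, in PSMD12-207, and the chaperone gene PSMG1 its largest, 31.2% and 35.5%, in PSMG1-203, both annotated as targets of nonsense-mediated decay. In PSME4 the processed transcript PSME4-206 held 49.7% and 46.6%. The transcript TPM are estimates, and the number of reads behind each is not known. Over all 43 members the median share in protein-coding transcripts was 96.6% and 97.1%, close to the 96.1% and 96.4% of the 7255 genes.

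**Figure D3:**
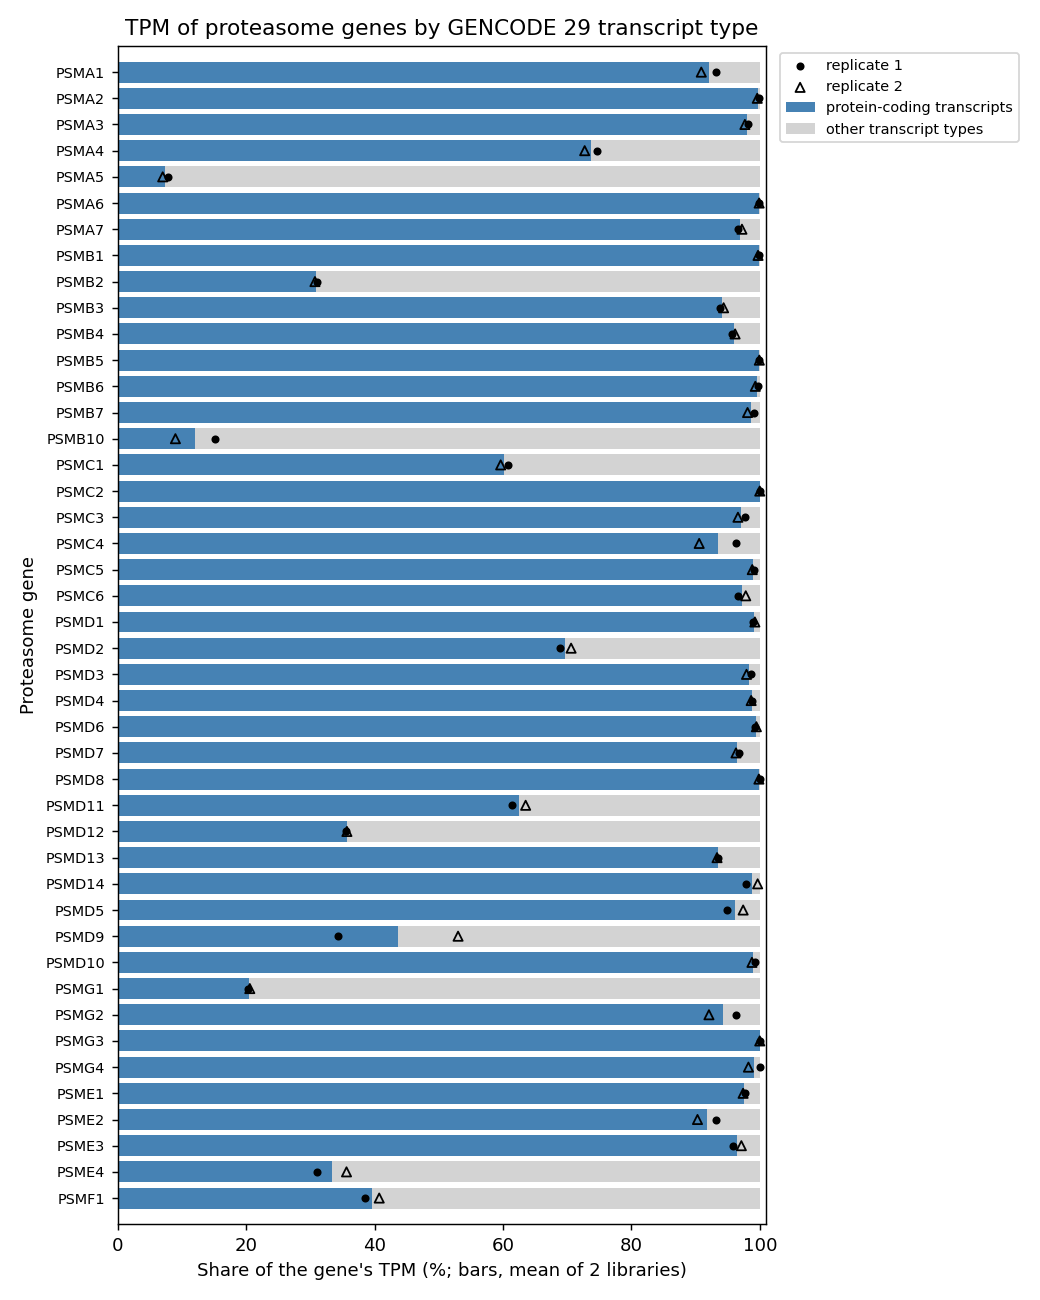
Share of each member's summed TPM in transcripts that GENCODE 29 types as protein-coding (blue bars, mean of both libraries) and in other types (grey), with replicate 1 as dots and replicate 2 as triangles. PSMA5, PSMB10 and PSMG1 have the shortest blue bars, and in PSMD9 the replicates lie apart.

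The replicates were compared gene by gene with a two-sided exact binomial test on whole reads (edgeR, TMM scaling, Benjamini-Hochberg adjustment over 15299 genes). This compares these libraries, not conditions. Of the 44 members tested, 1 passed the threshold of 0.05, where 13.1% of all genes tested did. It was higher in replicate 2, as were 6.78% of all genes tested, and 0 members were lower, where 6.35% of all genes were. Among genes with at least 50 CPM in both libraries, where counting error is small, 1 of 36 members passed and 28.5% of the 4120 genes did. At an unadjusted p under 0.05 there were 8 members, and 24.1% of all genes tested.

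The member that passed was PSMC1, a base ATPase (ENSG00000100764.14, chr14:90256495-90275429, plus strand). It had 4085 reads (169 CPM) in replicate 1 and 3997 reads (180 CPM) in replicate 2, a log2 difference of 0.09 (adjusted p = 0.0243 in the edgeR binomial test). With every gene that had a read in the test, its adjusted p was 0.0519 and no member passed. On the opposite strand NRDE2 covers 55.8% of its main transcript, PSMC1-202, and had 404 and 324 reads.

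On the log2((CPM + 1)/(CPM + 1)) scale, which understates differences of low genes, the median difference over the 43 members whose mean reached 1 CPM was -0.01, and that over all 13898 such genes was also -0.01. The SD over members was 0.07, and that over all such genes was 0.18, a comparison in which members also had the higher counts. In replicate 2, 16 members were higher and 27 lower. Among these 43 members PSME1 showed the largest difference, at 13.6 and 16.6 CPM (log2 0.27, adjusted p = 0.0574 in the edgeR binomial test), followed by PSMA1 (log2 0.17) and PSMG2 (log2 0.11). The lowest were PSME2 at -0.15, PSMB10 at -0.12 and PSMG3 at -0.10. The neighbours PSME1 and PSME2 thus stood at opposite ends, and neither passed the test.

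**Figure D4:**
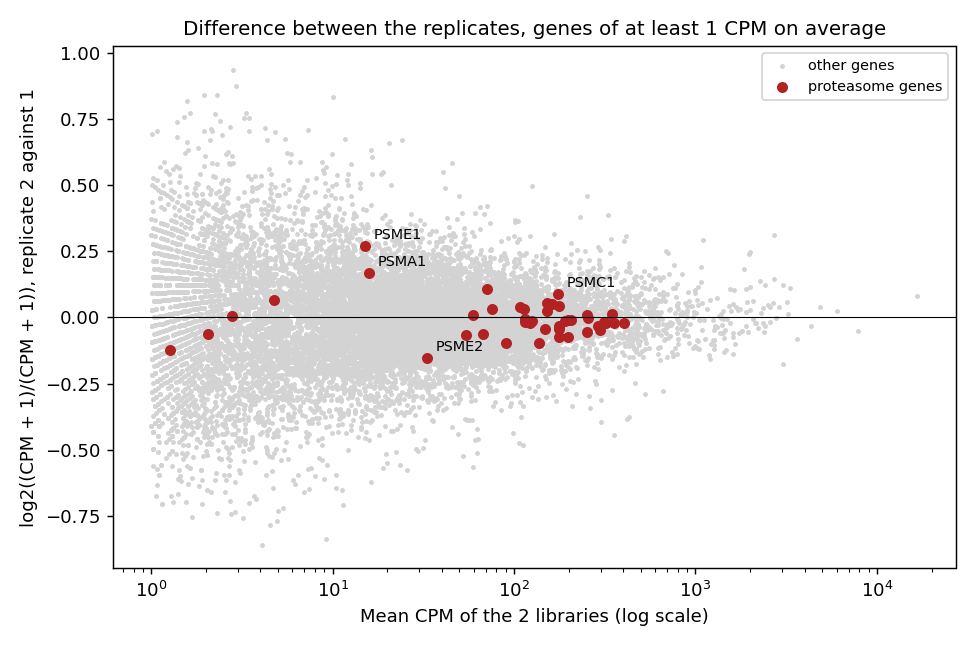
log2 difference in CPM of replicate 2 against replicate 1 by mean CPM (log axis), for genes whose mean reached 1 CPM, with members in red over all other genes in grey. Members lie between -0.15 (PSME2) and 0.27 (PSME1), and those above 100 CPM lie close to 0.

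Genes that work with the proteasome were taken from a list of 28, and all 28 were detected, with a median level of 72.2 TPM. The cap subunits SEM1 and ADRM1, whose symbols fall outside the PSM pattern, had 496 and 423 TPM, and 270 and 262 TPM. SEM1 also had only 0.239 and 0.240 of its predicted reads. POMP, which assembles the core, had 49.6 and 41.7 TPM with 2.24 and 2.48 times its predicted reads, and PAAF1, an assembly factor of the ATPase base, had 19.9 and 16.7 TPM. Of the proteins bound to the proteasome TXNL1 was the highest (117 and 119 TPM) and the ubiquitin ligase UBE3C the lowest (14.5 and 15.1 TPM).

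Among the shuttles that bring ubiquitinated proteins, DDI2, which also cleaves NFE2L1, was the lowest (6.64 and 6.44 TPM). NFE2L1, the transcription factor that raises subunit genes when proteasome activity is short, had 119 and 129 TPM. VCP, which extracts NFE2L1 from the endoplasmic reticulum, was the highest of the genes for control of subunit transcription (320 and 294 TPM) and NGLY1, which removes its glycans, the lowest (15.3 and 15.7 TPM). AKIRIN2 and IPO9, which import the proteasome into the nucleus, were level at 61.8 ± 1.80 and 59.7 ± 1.80 TPM (SD, n = 2). The ubiquitin genes ran from RPS27A (4217 and 4057 TPM), a fusion of ubiquitin with a ribosomal protein, to the activating enzyme UBA1 (125 and 126 TPM).

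Between the libraries 6 of the 28 passed the same edgeR binomial test, beside the 13.1% of all genes. All of the 28 except PAAF1, NGLY1 and DDI2 had at least 50 CPM in both libraries, a level at which 28.5% of genes passed. Among the 6 that passed, NFE2L1 (log2 0.08) and UBB (log2 0.06) were higher in replicate 2. SEM1 (log2 -0.21), ECPAS (log2 -0.12) and RPS27A (log2 -0.06) were lower.

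RefSeq promoter windows of 300 bases, from 250 bases before to 50 after a gene's start, were matched for 40 members in 48 windows (GRCh38.p14). PSMA7, PSMB1, PSMB6, PSMB7, PSMD4 and PSMG3 had none. The core of the antioxidant response element, TGACNNNGC on either strand, the type of site that NFE2L1 and NFE2L2 bind, was in 29.2% of the member windows, from 14 genes. It was in 13.3% of all 35116 windows and in 14.5% of the 15213 windows of detected genes. A match is a description and not a bound site, since no binding was measured.

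Matches from an alpha ring gene, a beta ring gene, a base ATPase, a lid subunit and an assembly chaperone are shown with 10 bases on each side, to let the element be seen across the classes, with the core in capitals. The coordinates in that order are chr15:78540650-78540678, chr17:38752627-38752655, chr17:63827654-63827682, chr17:67366724-67366752 and chr21:39183616-39183644. PSMA4 and PSMB3 are read on the plus strand and the other sequences on the minus strand, which for PSMC5 is opposite to the gene.
PSMA4: gtgggcacgaTGACTCTGCaccgcctcct
PSMB3: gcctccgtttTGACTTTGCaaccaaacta
PSMC5: agggcggcgcTGACACAGCagatccggtc
PSMD12: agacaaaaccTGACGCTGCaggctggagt
PSMG1: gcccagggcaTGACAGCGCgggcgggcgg
In these genes the base of the core farthest upstream lay 126, 104, 57, 165 and 183 bases before the RefSeq start site of the window. The matches of PSMA4, PSMC5 and PSMG1 nevertheless lay inside the gene as annotated in GENCODE, downstream of its first base. Those of PSMB3 and PSMD12 lay upstream of that base. Which start site was used was not measured. The other genes with the core were PSMC4, PSMD1, PSMD3, PSMD5, PSMD9, PSME1, PSME2, PSME4 and PSMG2. Genes with it were not all high: PSMD5 had 23.4 and 21.7 TPM, and PSMB4, the highest member, had no match in its window.

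Other motifs were searched on both strands in the same windows. CCGGAAGT, bound by ETS factors, was in 20.8% of member windows (10 genes), 4.14% of all windows and 7.30% of windows of detected genes. The motif of nuclear respiratory factor was in 14.6% (5 genes), 5.78% and 10.0%, in that order. CCAAT, bound by NF-Y, was in 39.6% (19 genes), 34.6% and 34.6%. PSMA8, with no read, held the ETS motif, and PSMB11, also with no read, held CCAAT.

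The members lay on 17 chromosomes. Chromosome 14 held 8 of the 46 (17.4%), beside 3.09% of protein-coding genes, and chromosome 17 held 7 (15.2%), beside 5.97%. Those on chromosome 14 came from 5 classes and ran in level from PSMB11 at 0 TPM to PSMA6 at 358 and 383 TPM.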

How the data were processed

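The authors deposited TPM per transcript, made from polyadenylated RNA libraries of a stranded kit, and a gene table of signal. The submitters' processing notes name Trim Galore 0.6.10, STAR 2.7.11a, Salmon 1.10.2 and DESeq2 with GRCh38. The annotation release and counting rules are not given in the sources used here. Each library of the deposited signal proved to be whole reads multiplied by a constant: 1 read was worth 1.02 (replicate 1) and 1.12 (replicate 2), and 100% of values above 0 came out whole within 0.001 read. No column of per-sample values was left unused (0). The recovered reads gave CPM, Wilson intervals (95%) and a floor of 3 reads.

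Transcripts were assigned to genes by identifier through GENCODE 29, which held 201667 of 251955 transcripts and 94.8% of TPM in each library, and all 46 members matched. Predicted CPM is TPM times transcript length, scaled like CPM. A gene was detected at 1 CPM in both libraries. The binomial test used edgeR 4.0.16 (R 4.3.3) with filterByExpr. It was tested on simulated data. DESeq2 1.42.0 size factors, total reads, no filter, other thresholds, reads per kilobase and single replicates were alternatives. Exon overlaps used bedtools 2.31.1.

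Members and lists were chosen with earlier results of these data known. The text names every member by its level, for the replicate comparison those that passed and the 3 highest and 3 lowest, for transcripts a preset few and those whose top transcript differed, and for partner genes the highest and lowest of each role, except that some values are not reported here. The planned protein features (identity, motifs) were not analysed here; coding sequences were compared instead.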

Additional observations from a re-analysis of the deposited data

How the results depend on the processing

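No paired analysis was possible because only 1 group is present. Leaving out a replicate gives no value for results that compare the replicates. Of 112 alternatives over 33 results, 72 stayed within the spread or 1.5 times the main count, 40 moved and none changed the sign of a value, although the order of the class medians changed. Among the 72 are the runs that left out a replicate and values that were 0 in every setting, so the tally overstates stability. Leaving out either replicate moved no result, but most levels and shares could not move by this rule, whose spread came from the same libraries. PSMA8 had 0 reads in each library, and the count of detected members was 43 to 44.

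With reads per kilobase, scaled like TPM, the class medians were 119 (alpha ring), 265 (beta ring), 241 (base ATPases), 162 (non-ATPase cap), 50.3 (activators), 28.8 (base assembly chaperones), 94.3 (core assembly chaperones), 136 (inhibitor) and 1.59 (PSMB10 and PSMB11). The coefficients of variation were 1.17, 0.647, 0.432 and, for activators, base and core assembly chaperones, 1.43, 1.05 and 0.762. Leaving out the members that share exons, an alternative chosen after seeing the data, the alpha ring median was 314 (coefficient of variation 0.615), the base assembly chaperones 54.6 and PSMB11 alone 0. The alpha ring was thus below the beta ring by reads per kilobase and above it without the sharing members.

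With the highest transcript only, the medians were 298 (alpha ring), 159 (base ATPases), 142 (non-ATPase cap), 44.8 (activators), 28.3 (base assembly chaperones), 58.6 (core assembly chaperones), 41.0 (inhibitor) and 13.1 TPM (PSMB10 and PSMB11). The coefficients of variation, in the order alpha ring, beta ring, base ATPases, non-ATPase cap, activators, base and core assembly chaperones, were 0.592, 0.725, 0.54, 0.593, 0.717, 0.605 and 0.922.

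By TPM the PSMB10 share was 12.5% in place of 0.851%, and the pseudogenes held 0.108% of the members' amount in place of 0.0259% of their reads. Without a filter 0 members passed the edgeR binomial test in place of 1, where the number of genes tested rose from 15299 to 26504 and the number of genes that passed fell from 2008 to 1716. At 75% of exon length shared 1 member was left in place of 5, in the upstream bases alone 6 genes held the ETS motif in place of 10, both chosen after seeing the data, and at 1 TPM the median share of the top transcript was 89.0% in place of 89.1%. The cause of these shifts was not tested where the setting itself does not give it.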
